A study of Mus musculus with 19 samples.

Results

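Among neurons of the mouse lateral hypothalamic area (LHA), 182 wells of 360 that passed a gate for neurons without the orexin or melanin-concentrating hormone peptides held at least 3 counts, summed, of Mc4r, Calcr and Asb4. These 182 wells are called members here, and the other 178 passing wells, with a sum below 3, are the wells they were set against. Of 1612 wells labelled LHA, 1534 had at least 1000 detected genes, 1365 of those had at least 10 counts of the neuronal gene Snap25, 427 of those had Hcrt (orexin) under 1% of their mouse gene counts, and 360 of those also had Pmch (melanin-concentrating hormone) under 1%. Counts of Mc4r, Calcr and Asb4 chose the members, so the levels of these 3 genes are given as a description. Single cells were picked by hand into 19 plates of 96 wells and turned into libraries with Smart-SCRB, a plate method that tags each molecule with a well barcode and a molecular identifier. All 19 plates form 1 group: male mice aged 6 to 8 weeks that carried both Agrp-IRES-Cre and the Ai9 reporter, in which Cre made from the Agrp gene switches on the red protein tdTomato in AGRP neurons. The picked cells were not fluorescent, and the red axons of AGRP neurons were used to find the borders of the LHA, so members and other wells share genotype, age, sex and plate. The plates, numbered here as replicates in order of deposit, came from 7 mice, and which mouse gave which plate is not stated, so plates are not fully independent and the p-values below may be smaller than the data warrant. Because wells were filled by hand, the share of members among them is not a share in the tissue.

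Mc4r encodes the melanocortin-4 receptor, which couples to stimulatory G proteins and cAMP, is activated by melanocortins made from proopiomelanocortin, is blocked by AGRP and is known for its part in the control of feeding and body weight. Calcr encodes the calcitonin receptor, which binds calcitonin and, with receptor activity modifying proteins (RAMPs), amylin. Asb4 encodes a protein with ankyrin repeats and a SOCS box that is made in several hypothalamic neuron groups. GABAergic neurons of the LHA are a mixed class that makes many peptides, among them neurotensin and galanin. Calcr and Asb4 lie on chromosome 6 near the imprinted genes Sgce, Peg10 and Ppp1r9a.

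The stretch of 150 bases before the annotated start is printed for Calcr and Asb4, which define the members, and for Cartpt and Nts, the peptide genes with the highest CPM that rose in members. The sequences are RefSeq sequences of the build GRCm38.p6, 5′ to 3′ on the strand of the gene. Capitals mark matches to the letters TGACGTCA, the cAMP response element (CRE), or to TGACG, a part of it, on either strand.
Calcr, chr6:3764714-3764863, minus strand: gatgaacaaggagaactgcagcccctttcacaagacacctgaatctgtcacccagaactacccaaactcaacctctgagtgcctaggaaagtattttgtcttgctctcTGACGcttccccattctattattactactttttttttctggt
Asb4, chr6:5383236-5383385, plus strand: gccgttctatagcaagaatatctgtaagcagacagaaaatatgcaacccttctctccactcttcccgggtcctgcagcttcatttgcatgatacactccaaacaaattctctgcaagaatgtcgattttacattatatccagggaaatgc
Cartpt, chr13:99900684-99900833, minus strand: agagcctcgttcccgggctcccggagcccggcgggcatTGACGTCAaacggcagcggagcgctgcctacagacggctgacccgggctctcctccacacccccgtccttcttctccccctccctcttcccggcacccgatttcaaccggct
Nts, chr10:102490419-102490568, minus strand: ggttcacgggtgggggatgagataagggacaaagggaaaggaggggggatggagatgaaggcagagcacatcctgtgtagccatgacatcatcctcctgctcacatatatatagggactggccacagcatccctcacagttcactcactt
The whole CRE stood before the Cartpt start, where it holds a TGACG on each strand, and Calcr had TGACG alone, 42 bases before its start. In 32851 windows of the same length before mouse genes, TGACGTCA was found in 1.36% and TGACG in 13.3%. The letters TGANTCA, the core bound by AP-1 factors, found in 4.24% of windows, and TAATTA, a core bound by homeodomain factors, found in 2.73%, had no match in these 4 stretches. The RefSeq start used here lies 408 bases from the start of the gene in the GENCODE annotation for Cartpt, whose stretch holds the whole CRE, and 68 bases from it for Nts; for Calcr and Asb4 the offset is 1 base at most.

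The members differed widely in how much of each gene they held. Their summed count of Mc4r, Calcr and Asb4 started at 3 and had a median of 15.5, whereas 153 of the 178 other wells held none, 18 held 1 and 7 held 2. Asb4 had a count in 92.9% of members, Calcr in 64.8% and Mc4r in 47.8%, against 7.87%, 2.25% and 3.93% of the other wells. In 1068 LHA wells with at least 1000 genes and at least 1% Hcrt, called orexin wells and given for comparison, the shares were 1.97%, 2.15% and 1.69%. These wells did not have to meet the limits on Snap25 or Pmch. Hcrt also had a count in 63 of 64 wells labelled ERCC, so the limit of 1% does not by itself show an orexin neuron. In 68 wells labelled qRNA, with a median of 18251 counts, 1 had a count of Asb4 and none had one of Calcr or Mc4r. Median depth was 26915 counts per well in members, 24524 in the other wells and 45783 in the orexin wells. All 3 genes were detected together in 68 members, Calcr and Asb4 in 42, Mc4r and Asb4 in 11, Mc4r and Calcr in 3, and 1 gene alone in 58, of which 48 had Asb4 alone. Sums just below and just above the limit were equally common, with 7 wells at 2 and 7 wells at 3, as the plot of wells by their summed count shows.

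**Figure D1:**
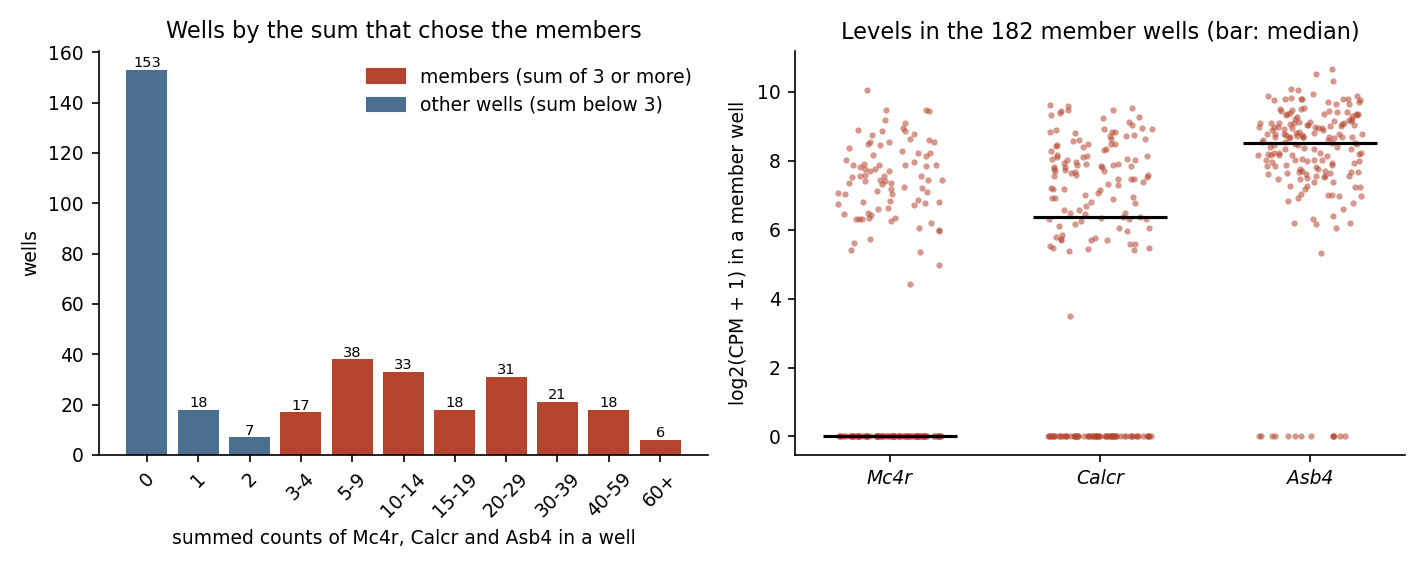
Left, number of wells by the summed counts of Mc4r, Calcr and Asb4, with members in red and other wells in blue. Right, log2(CPM + 1) of each gene in the 182 member wells, with each point a well and a bar at the median; points at 0 are wells without a count, and the sums of the members run on from those of the other wells with no gap.

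Levels were computed by summing the counts of a class within a plate and scaling them to CPM, a common total of mouse gene counts, in the 13 plates with at least 3 wells of each class, which hold 171 members and 166 other wells. Mc4r (chromosome 18, 66857704 to 66860506, GRCm38) had 49.9, 127 and 232 CPM at the lowest, median and highest plate of members, against 0, 0 and 6.45 CPM in the other wells. Calcr (chromosome 6, 3685680 to 3764714) had 71.6, 162 and 331 CPM in members, against 0, 0 and 5.56 CPM. Asb4 (chromosome 6, 5383386 to 5433022) had 242, 383 and 546 CPM in members, against 0, 3.99 and 13.9 CPM. No plate's members overlapped the other wells in any of these genes, which the choice of members fixes. Just inside the limit, the 7 members with a sum of 3 together had 498 CPM of Nts, 2243 of Gal, 304 of Cartpt and 275 of Crh. Just outside it, the 7 other wells with a sum of 2 had 359.9, 920.5, 1027 and 106.2 CPM. On replicate 9, 1 of these 7 wells held 172 counts of Cartpt, 43 of Nts and 15 of Crh. None of the rest had above 1 count of Cartpt. When wells were thinned to 18000 counts, 151 members and 144 other wells were deep enough; 10 of these members then fell below a sum of 3, and as thinning only removes counts, no other well could pass it.

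The GABAergic label held for most members. Gad1 and Gad2, the enzymes that make GABA, had counts in 91.2% and 95.6% of members, against 75.8% and 73.6% of the other wells and 21.6% and 18.8% of the orexin wells. Slc32a1, the transporter that loads GABA into vesicles, had a count in 61% of members, 47.2% of the other wells and 2.43% of the orexin wells. Slc17a6, the vesicular glutamate transporter, had one in 10.4%, 26.4% and 88.5% of these wells. A gate of at least 5 counts of Gad1 and Gad2 together, and more of them than of Slc17a6, took 170 of 182 members and 129 of 178 other wells. The 12 members outside that gate together had 312 CPM of Slc17a6 and 509.8 CPM of Otp, a homeobox gene of peptide neurons, and 40.2 CPM of Nts. These 12 wells carry the counts of the rule but not the GABAergic label.

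Across plates, the members' wells were somewhat deeper than the others. A rule with a minimum count favours deep wells, so the choice of members itself pushes toward this difference. The part of the rule in the depth and spike-in values below was not tested. The median well of a plate held 30261 ± 10180 counts in members and 26731 ± 11918 in the other wells (mean ± SD, n = 13 plates), a difference of 3530 in the members' favour, with members higher in 11 of 13 plates (exact two-sided sign-flip permutation test, p = 0.0339, smallest possible 2.44e-04). The difference did not hold under every set of plates: without replicate 4, 5, 8, 13, 14 or 19 it was between 2804 and 3423 counts with p between 0.0542 and 0.0679. Synthetic ERCC RNAs, added to the wells as a spike-in, took a percent of counts of 5.86 ± 1.46 in members and 6.80 ± 1.80 in the other wells, lower in members in 11 of 13 plates (p = 0.00146). At 18000 counts per well, members had 3960 ± 214 genes and other wells 3858 ± 232 (n = 12 plates, higher in 8, p = 0.0146).

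Markers of other cell types were mostly low in members. The summed level of 8 oligodendrocyte genes was 46.5, 119 and 5113 CPM at the lowest, median and highest plate of members, against 11.3, 62.5 and 1986 CPM in the other wells, and was higher in members in 10 of 13 plates. The 8 astrocyte genes summed to 168, 402 and 492 CPM in members, against 475, 556 and 834 CPM, lower in members in every plate, with Agt and S1pr1 at 0 in members. Of these 8, only Aldoc, an enzyme of glycolysis, passed the filter on low counts, and it was lower in members (log2 fold change -0.68 ± 0.12, adjusted p = 1.31e-04). The 8 microglia genes reached 3.89 CPM at most in members, with 6 of them at 0, and 11.3 CPM in the other wells. Genes of arcuate peptide neurons, among them Agrp, Npy, Pomc and Otp, summed to 4.12, 60.8 and 123 CPM in members, with Kiss1 at 0. In the other wells they summed to 0, 75.9 and 334 CPM. Otp alone had 0, 7.98 and 98.8 CPM in members, against 0, 64.5 and 328 CPM in the other wells. Endothelial, mural, ependymal and oligodendrocyte precursor lists had medians of 6.00, 0, 0 and 2.59 CPM in members, against 15.4, 0, 0 and 1.71 CPM. The part of these levels in the results below was not tested.

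Members were compared with the other wells over all genes with edgeR's quasi-likelihood test on the plate sums, with the plate as a block. Of 5534 genes tested, 478 (8.64%) had an adjusted p under 0.05, of which 267 were higher in members (4.82% of those tested) and 211 lower (3.81%). The median log2 fold change over all genes tested was 0.00. Counts called in the gene lists of this comparison stand beside these shares of 4.82% and 3.81% over all genes tested. By the rule for named genes, the 4 genes with the largest rise were Crh, Cartpt, Mt2 and Nts, followed by Acvr1c, Tmem114, Gsx1, Rasgrp1, Cited1 and Crem, and the 4 with the largest fall were Adcy2, Sncg, Tac2 and Calb2. Values follow as the lowest, median and highest of the 13 plates, then as the log2 fold change of members over other wells ± its standard error.

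Neuropeptide genes were among those with the largest differences. Of 51 genes in the list, 18 were tested, 7 rose and 3 fell, with a median log2 fold change of 0.25. Nts, the gene of neurotensin, had 2450.1, 5283 and 6422 CPM in members, against 0, 181 and 1146 CPM in the other wells. No plate of members reached down to the other wells' range (log2 fold change 4.43 ± 0.50, adjusted p = 9.05e-05). Cartpt, the gene of the CART peptides, which reduce feeding when given into the brain of rodents, had 3186, 5723 and 15354 CPM in members, against 2.78, 176 and 1434 CPM in the other wells. Its ranges did not overlap either (log2 fold change 4.99 ± 0.58, adjusted p = 1.19e-04). Crh, the gene of corticotropin-releasing hormone, had 104.3, 340.1 and 1093 CPM in members, against 0, 0 and 151 CPM in the other wells. The lowest plate of members lay below the highest plate of the other wells, but members were higher within each of the 13 plates (log2 fold change 5.02 ± 0.70, adjusted p = 5.54e-04).

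Penk, the enkephalin precursor, had 488, 938 and 1709 CPM in members, against 20.8, 176 and 577 CPM in the other wells (log2 fold change 2.05 ± 0.37, adjusted p = 0.00386). Gal, the gene of galanin, had 1649, 2516 and 3131 CPM, against 208, 1096 and 2231 CPM (log2 fold change 1.24 ± 0.26, adjusted p = 0.0105). For both genes the ranges overlapped, and members were higher within all 13 plates. Vgf, the precursor of several secreted peptides, averaged 975 ± 279 CPM in members and 295 ± 141 CPM in the other wells (SD, n = 13 plates, log2 fold change 1.85 ± 0.12, adjusted p = 4.46e-12). Resp18, a protein of secretory granules, rose by less (0.33 ± 0.07, adjusted p = 0.00197). Tac1, the precursor of substance P, had 50.8, 741 and 1683 CPM in members, against 0, 111.5 and 559.6 CPM. It was higher in members in 11 of 13 plates but did not pass the test (log2 fold change 2.24 ± 0.70, adjusted p = 0.0731); without replicate 14 it was 2.61 (adjusted p = 0.016) and without replicate 9 it was 2.53 (adjusted p = 0.049). It also passed with DESeq2 (3.18, adjusted p = 2.58e-04), with no replicate block (1.93, adjusted p = 0.0238), with members of a sum of at least 10 and with members of at least 2 of the 3 genes. With members of Asb4 alone its sign turned (-2.72), and it passed as lower in members.

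The peptide genes that fell were Tac2, Pnoc and Chga. Tac2, the neurokinin B precursor, had 0, 60 and 513 CPM in members, against 56.4, 530.2 and 1132 CPM in the other wells, and was lower in members in 12 of 13 plates (log2 fold change -3.25 ± 0.73, adjusted p = 0.0134). Pnoc, the precursor of nociceptin, averaged 42.1 ± 56.5 CPM in members and 193 ± 161 CPM in the other wells (log2 fold change -2.31 ± 0.61, adjusted p = 0.0313). Without replicate 3, 5, 8, 12, 15 or 19 the adjusted p of Pnoc was between 0.0515 and 0.0635, and thinned (-2.07, adjusted p = 0.147) or with no filter on low counts (-2.30, adjusted p = 0.132) it did not pass. With no filter Tac2 did not pass either (-3.37, adjusted p = 0.0575). Chga, chromogranin A of secretory granules, had 263 ± 99.4 CPM in members and 524 ± 151 CPM in the other wells (log2 fold change -1.001 ± 0.12, adjusted p = 4.75e-07). The plot of neuropeptide genes joins the classes of each plate.

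**Figure D2:**
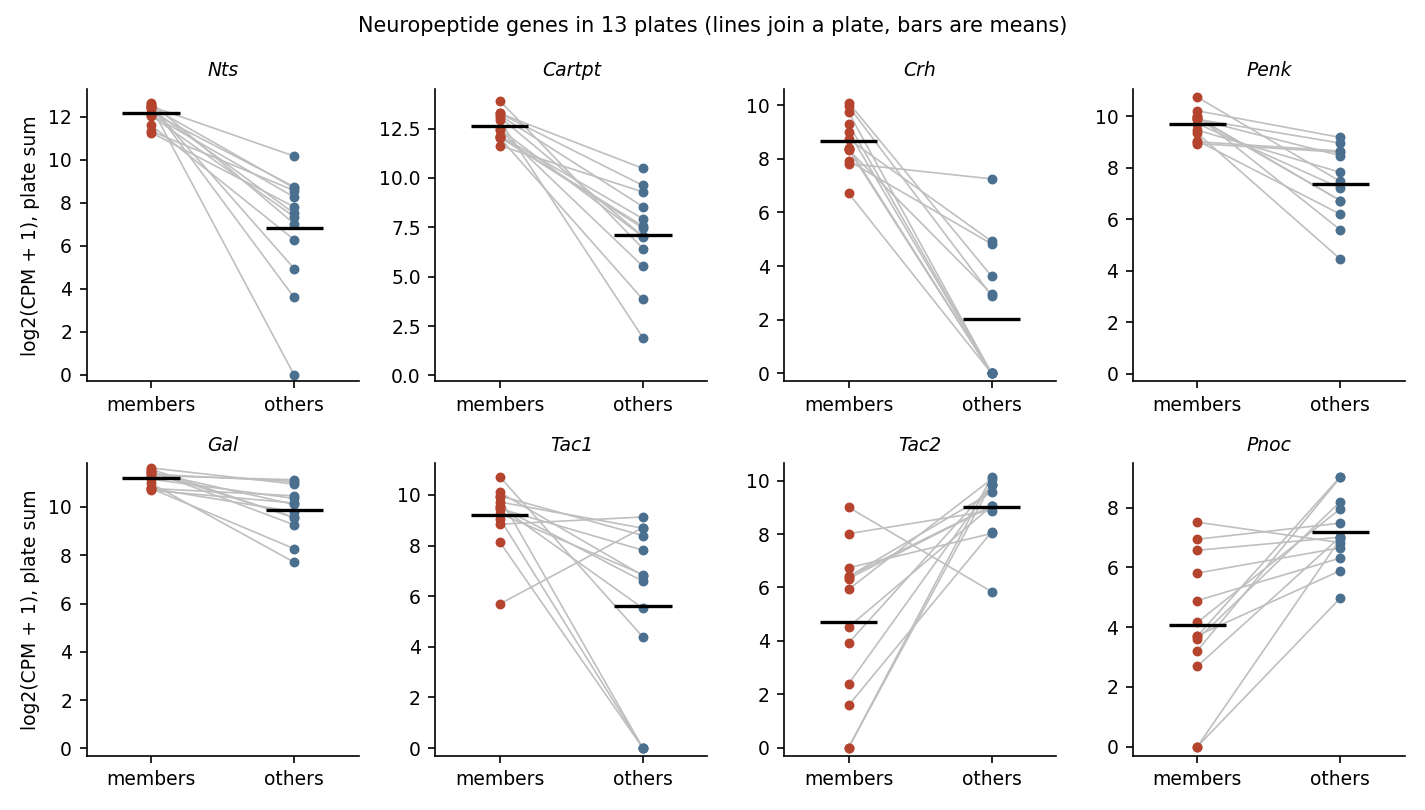
Level of 8 neuropeptide genes as log2(CPM + 1) of the summed counts of a plate, members on the left and other wells on the right of each panel. Each grey line joins the classes of 1 of 13 plates and bars are means; Nts and Cartpt do not overlap between classes, Gal and Penk overlap, and Tac2 and Pnoc run the other way in 12 of 13 plates.

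Shares of wells with a count are given beside the orexin wells, which were deeper; whether their counts of these genes come from free RNA or from the cells was not tested. Of 64 wells labelled ERCC, 3 had a count of Nts, 5 of Gal, 12 of Cartpt and none of Crh, with no well above 1 count. Nts was detected in 84.6% of members, against 42.1% of the other wells and 30.8% of the orexin wells. Thinned to 18000 counts, the shares were 80.1%, 44.4% and 22.3%. Crh was detected in 52.7% of members, against 8.43% and 2.25% (thinned 49.7%, 9.03% and 0.895%). Cartpt was detected in 84.1% of members, 51.7% of the other wells and 44.5% of the orexin wells, and thinned in 84.1%, 44.4% and 25.8%. Gal was detected in 91.2% of members, 55.6% of the other wells and 56.4% of the orexin wells (thinned 90.7%, 52.8% and 44.6%). Tac2 was detected in 14.8% of members, against 41.6% of the other wells and 3% of the orexin wells.

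Among regulators of transcription, Gsx1, Isl1 and Dlx1, homeobox genes of GABAergic lineages, rose. Of 34 lineage genes, 7 were tested and 4 rose, with a median log2 fold change of 1.36, and none fell, beside 4.82% higher over all genes tested. This split is in part set by the filter on low counts, which Gsx1 passed through the members' plates. Gsx1, a homeobox gene of neural progenitors, had 37.9, 92.7 and 137 CPM in members, against 0, 0 and 23.9 CPM in the other wells, with no overlap (log2 fold change 3.62 ± 0.51, adjusted p = 8.68e-06). It was detected in 58.8% of members, 6.18% of the other wells and 0.655% of the orexin wells. Isl1, a LIM homeobox gene, had 105.2, 188 and 329.8 CPM in members, against 0, 16.9 and 70.5 CPM in the other wells, again with no overlap (log2 fold change 3.01 ± 0.34, adjusted p = 1.58e-07). Dlx1, a homeobox gene of forebrain GABAergic neurons, had 55.1, 112.99 and 171 CPM, against 0, 38.2 and 76.4 CPM, with overlap between plates (log2 fold change 1.39 ± 0.27, adjusted p = 6.85e-04). The fourth was Prox1 (log2 fold change 1.36 ± 0.44, adjusted p = 0.0497), whose adjusted p was between 0.0561 and 0.105 without any 1 of 10 plates (replicates 3, 4, 5, 8, 11, 12, 14, 15, 17 and 18) and was 0.0643 with no replicate block. Dlx5 was under the filter on low counts, with 29.3 CPM in members, against 16.3 CPM in the other wells. Otp, of the list of glutamatergic and peptide neurons, did not pass the test (log2 fold change -1.20 ± 0.95, adjusted p = 0.562).

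Transcription factors and cofactors outside that list also rose. Crem, a factor that binds CRE sequences, had 77.8, 220.5 and 432 CPM in members, against 0, 21.2 and 58.1 CPM in the other wells. Its ranges did not overlap (log2 fold change 3.17 ± 0.38, adjusted p = 6.76e-06). Cited1, a transcriptional coactivator, rose by 3.34 ± 0.42 (adjusted p = 2.06e-05). Stat3, a factor downstream of the leptin receptor among others, averaged 107.5 ± 50.3 CPM in members and 30.2 ± 19.8 CPM in the other wells (log2 fold change 1.89 ± 0.26, adjusted p = 3.79e-06). Of 4 tested genes that respond to dissociation and activity, out of 20, Jun alone rose (log2 fold change 0.92 ± 0.21, adjusted p = 0.00386), and none fell.

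Of the receptors that AGRP neurons can signal to, Npy2r rose and Gabrb1 fell. AGRP neurons release AGRP, neuropeptide Y and GABA, and of 24 genes for receptors of these and of melanocortins, 13 were tested. Of these 1 was higher and 1 lower, with a median log2 fold change of -0.18, beside 4.82% higher and 3.81% lower over all genes tested. The one that rose was Npy2r, a receptor for neuropeptide Y, with 8.23, 55.8 and 138 CPM in members, against 0, 15.7 and 53.5 CPM in the other wells, higher in 10 of 13 plates (log2 fold change 1.83 ± 0.47, adjusted p = 0.0103). The one that fell was Gabrb1, a GABA-A receptor subunit, with 203 ± 82.5 CPM in members and 300.3 ± 57.3 CPM in the other wells (log2 fold change -0.60 ± 0.14, adjusted p = 0.0055). Mrap2, a partner protein of melanocortin receptors, did not pass the test (log2 fold change -0.08 ± 0.37, adjusted p = 0.945).

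Mc3r, the melanocortin-3 receptor, was under the filter on low counts and was not tested; it had 17.4, 37.1 and 110.4 CPM in members, against 0, 0 and 37.9 CPM in the other wells, and was higher in members in all 13 plates. It was detected in 39% of members, 11.8% of the other wells and 1.22% of the orexin wells (thinned 35.1%, 9.72% and 0.596%). Npy1r and Npy5r, also under the filter, averaged 19.5 ± 16.5 and 13.6 ± 16.2 CPM in members, against 4.14 ± 9.91 and 5.16 ± 10.6 CPM. The RAMPs, which turn the calcitonin receptor into an amylin receptor, were scarce: Ramp1, Ramp2 and Ramp3 averaged 0.776 ± 1.57, 8.2 ± 9.53 and 0.311 ± 0.815 CPM in members, against 2.71 ± 3.89, 6.54 ± 8.39 and 12.9 ± 37.2 CPM in the other wells. Calcrl, the related receptor for CGRP and adrenomedullin, had no count in either class. Of the 11 genes of the calcitonin receptor family list, 1 was tested, Crcp, a protein named as a CGRP receptor component, and it did not pass (log2 fold change 0.25 ± 0.37, adjusted p = 0.782).

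Hormone receptors and signalling genes showed single changes. Of 29 metabolic and steroid receptor genes, 11 were tested, 2 rose and 1 fell, with a median log2 fold change of 0.12. Nr3c1, the glucocorticoid receptor, had 119.6, 162 and 515 CPM in members, against 0, 69.8 and 140 CPM in the other wells, and was higher within all 13 plates (log2 fold change 1.49 ± 0.20, adjusted p = 3.79e-06). Irs4, an insulin receptor substrate of the hypothalamus, had 65.6, 132 and 235 CPM, against 6.45, 23.5 and 81.4 CPM (log2 fold change 2.09 ± 0.30, adjusted p = 8.09e-06). The gene that fell was Thra, a thyroid hormone receptor (log2 fold change -0.52 ± 0.13, adjusted p = 0.0105). Lepr, the leptin receptor, was not tested, with 15 ± 12 CPM in members and 1.72 ± 3.75 CPM in the other wells, and was detected in 19.8%, 2.81% and, among orexin wells, 1.4%. Ghsr, the ghrelin receptor, had no count in members and 3.24 CPM in the other wells, and Glp1r had none in either class. Esr1 averaged 14.6 ± 7.37 CPM and 17.1 ± 11.1 CPM and was not tested. Prlr, the prolactin receptor, did not pass the test (log2 fold change -1.42 ± 0.48, adjusted p = 0.0646), but was lower in members at an adjusted p of 0.0281 without replicate 12 (-1.68), 0.0273 without replicate 15 (-1.58) and 0.0482 without replicate 8 (-1.59). It also passed with DESeq2 (-1.55, adjusted p = 0.00842), with no filter on low counts and with members of a sum of at least 10.

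**Figure D3:**
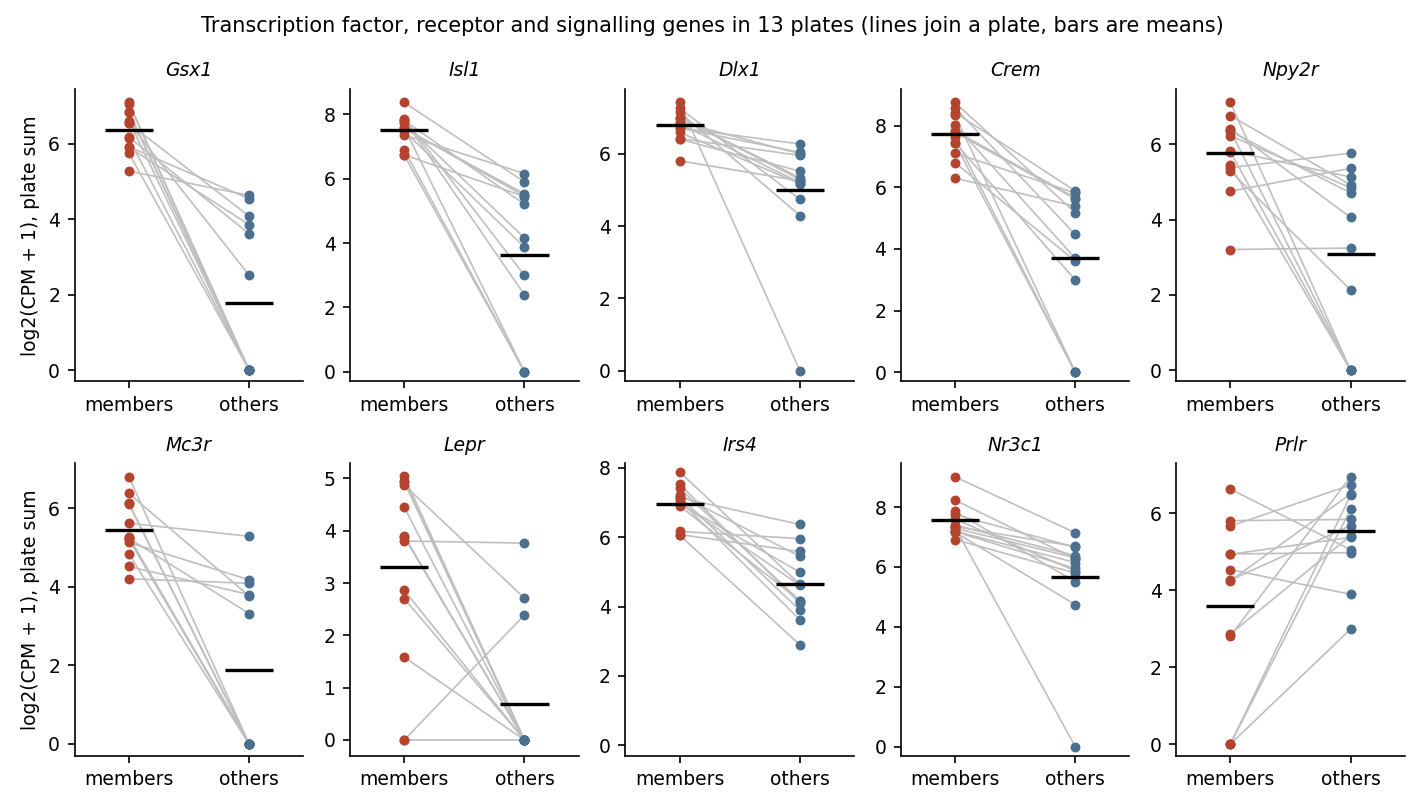
Level of 10 genes for transcription factors, receptors and signalling proteins as log2(CPM + 1) of the summed counts of a plate, members on the left and other wells on the right of each panel. Lines join the classes of 1 of 13 plates and bars are means; Gsx1, Isl1 and Crem do not overlap between classes, and Mc3r and Lepr, which are under the filter on low counts, are shown as values only.

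Most genes for other peptide and amine receptors were under the filter on low counts. Of 43 other neuropeptide receptor genes, 3 were tested, none rose, and Oprl1, the nociceptin receptor, fell (log2 fold change -0.79 ± 0.24, adjusted p = 0.0361). Ntsr1, a receptor for neurotensin, was not tested and had 3.16 ± 4.23 CPM in members, against 13.5 ± 13.2 CPM in the other wells; Ntsr2 had 1.74 ± 3.5 CPM in members and no count in the other wells. The orexin receptors Hcrtr1 and Hcrtr2 averaged 25.6 ± 13.5 and 8.93 ± 10.9 CPM in members, against 24.8 ± 23.3 and 14.2 ± 27.9 CPM, and the mu opioid receptor gene Oprm1 2.67 ± 4.81 CPM, against 2.46 ± 5.61 CPM. Of 35 monoamine and acetylcholine receptor genes, 2 were tested, and Adra2a, the alpha-2A adrenergic receptor, rose (log2 fold change 1.61 ± 0.39, adjusted p = 0.0074). Gpr101, an orphan receptor, averaged 229 ± 81.6 CPM in members and 78 ± 56.2 CPM in the other wells (log2 fold change 1.65 ± 0.24, adjusted p = 9.08e-06), and Cnr1, the cannabinoid receptor, 35 ± 23.4 CPM in members and 119 ± 51.8 CPM in the other wells (log2 fold change -1.85 ± 0.29, adjusted p = 3.16e-05).

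In the cAMP pathway, to which the receptors of the rule couple, 17 of 30 genes were tested, 4 rose and 2 fell, with a median log2 fold change of -0.02. Besides Crem, Gnas, whose main product is the stimulatory G protein subunit, averaged 3020 ± 279.7 CPM in members and 2339.6 ± 333 CPM in the other wells (log2 fold change 0.38 ± 0.06, adjusted p = 8.90e-05). The regulators of G protein signalling Rgs4 and Rgs2 rose by 1.62 ± 0.39 (adjusted p = 0.0152) and 0.94 ± 0.15 (adjusted p = 5.25e-05). Rgs4 did not pass with at least 2 wells per class (1.35, adjusted p = 0.0952), with no filter on low counts (1.69, adjusted p = 0.1), under limits of 0.2% on Hcrt and Pmch (0.84, adjusted p = 0.517) or without Tac2 wells (1.05, adjusted p = 0.151). Adcy2, an adenylyl cyclase, had 0, 5.46 and 48 CPM in members, against 30.6, 71 and 182 CPM in the other wells (log2 fold change -3.44 ± 0.49, adjusted p = 9.08e-06), and Pde1a, a phosphodiesterase, fell too (log2 fold change -1.82 ± 0.42, adjusted p = 0.00428). Rasgrp1, an activator of Ras (log2 fold change 3.62 ± 0.38, adjusted p = 4.11e-08), and Acvr1c, the activin receptor ALK7 (log2 fold change 4.15 ± 0.54, adjusted p = 3.26e-06), were among the 10 largest rises and did not overlap between classes. The same held for Tmem114, a membrane protein (log2 fold change 3.91 ± 0.42, adjusted p = 6.28e-08).

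The metal-binding protein Mt2 had 63.8, 154 and 313 CPM in members, against 0, 2.37 and 35.2 CPM in the other wells (log2 fold change 4.63 ± 0.41, adjusted p = 1.71e-09), and Mt1 rose with it (log2 fold change 2.54 ± 0.25, adjusted p = 1.95e-08). Of the calcium-binding proteins more fell than rose: of 16 genes 10 were tested, 1 rose and 4 fell, with a median log2 fold change of -0.52. Calb2, calretinin, had 4.12, 37.9 and 55.1 CPM in members, against 45.2, 211 and 463 CPM in the other wells, lower in members in 12 of 13 plates (log2 fold change -2.71 ± 0.30, adjusted p = 1.06e-07). Calb1, calbindin, averaged 55.7 ± 45.9 CPM in members and 241 ± 173 CPM in the other wells (log2 fold change -1.92 ± 0.50, adjusted p = 0.0274), with an adjusted p of 0.0506 to 0.0611 without replicate 4, 15, 18 or 19, and of 0.14 with no filter on low counts. Hpca and Hpcal1 also fell (-0.63 ± 0.13 and -0.997 ± 0.21), and Ncald, of the same family of neuronal calcium sensors, rose (0.60 ± 0.10).

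Ion channel and adhesion genes showed no common direction. Among potassium channels, 16 of 38 genes were tested, 1 rose and 4 fell (median -0.11): Kcnh1 rose (1.53 ± 0.41), and Kcnip4, Kcnab2, Kcna2 and Kcnk1 fell (-1.73 ± 0.31, -1.30 ± 0.28, -1.22 ± 0.33 and -0.82 ± 0.26). Among sodium, calcium, HCN and TRP channels, 19 of 34 were tested, Scn9a rose (1.06 ± 0.28) and Scn2b and Scn8a fell (-0.82 ± 0.16 and -0.75 ± 0.23; median -0.06). Of 24 glutamate receptor genes, 14 were tested and Grm5 alone passed, lower in members (log2 fold change -1.54 ± 0.38, adjusted p = 0.00698; median 0.06). Of 58 guidance and adhesion genes, 19 were tested, 5 rose and 1 fell (median 0.32), led by Sema5a, a semaphorin (log2 fold change 2.41 ± 0.37, adjusted p = 2.57e-05). Outside the lists, Spock1, a proteoglycan, had 6, 38.2 and 50.6 CPM in members, against 77.7, 138 and 235 CPM in the other wells, with no overlap (log2 fold change -2.18 ± 0.27, adjusted p = 8.98e-07), and the receptor phosphatase Ptprd did not overlap either (log2 fold change -2.06 ± 0.32, adjusted p = 4.42e-05). Sncg, Lypd1, Pcdh19 and Car10 were also among the 10 largest falls (-3.27 ± 0.77, -2.59 ± 0.37, -2.34 ± 0.41 and -2.19 ± 0.43).

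Imprinted genes, some of which lie near Calcr and Asb4, had 26 of 39 tested, with 4 higher, 3 lower and a median log2 fold change of -0.07. Near Asb4, Ppp1r9a, a neuronal protein that binds actin, rose (log2 fold change 0.78 ± 0.16, adjusted p = 0.00173), Sgce did not pass (log2 fold change 0.11 ± 0.27, adjusted p = 0.888) and Peg10 was under the filter. The others that rose were Gnas, Magel2, a gene of the region deleted in Prader-Willi syndrome (log2 fold change 1.28 ± 0.28, adjusted p = 0.00226), and Dlk1 (log2 fold change 1.31 ± 0.37, adjusted p = 0.0444), which had an adjusted p of 0.0527 to 0.0879 without replicate 3, 4, 8, 9, 11, 13, 15 or 19, and of 0.0574 when thinned and 0.168 with no filter on low counts. Nnat, Meg3 and Kcnq1ot1 fell (-1.42 ± 0.26, -0.44 ± 0.05 and -0.40 ± 0.12).

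In the transmitter lists Gad1 rose slightly, and Slc17a6, the vesicular glutamate transporter, fell. Gad1 averaged 566 ± 98.7 CPM in members and 429 ± 94.2 CPM in the other wells (log2 fold change 0.42 ± 0.10, adjusted p = 0.00408), and did not pass with at least 2 wells per class (0.60, adjusted p = 0.156). Gad2 did not pass (log2 fold change 0.35 ± 0.13, adjusted p = 0.0858), but did without replicate 11 (0.42, adjusted p = 0.0334) or 12 (0.44, adjusted p = 0.0227), with members of a sum of at least 10 (0.45, adjusted p = 0.0227), with members of at least 2 of the 3 genes (0.46, adjusted p = 0.0243) and with no filter on low counts (0.40, adjusted p = 0.00652). Slc32a1 did not pass (log2 fold change 0.06 ± 0.28, adjusted p = 0.949). Slc17a6 had 0, 14 and 82 CPM in members, against 4.24, 51.6 and 321 CPM in the other wells (log2 fold change -1.71 ± 0.45, adjusted p = 0.0126). Of 8 pan-neuronal genes, all tested, Nefl, Rbfox3 and Uchl1 fell and none rose (median -0.16, Snap25 included). Snap25 also passed as lower, but the gate used its counts, so its level is given as a description. Nefl, the light neurofilament chain, led them (log2 fold change -1.24 ± 0.14, adjusted p = 2.54e-07). Snap25 averaged 1374 ± 173 CPM in members and 1831 ± 221 CPM in the other wells. The gate set the same minimum count of Snap25 for both classes, which can act unlike on wells of unlike depth.

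The calls depended on which wells were compared. Under limits on Hcrt and Pmch of 0.2% in place of 1%, which left 7 plates, 1.63% of tested genes passed, among them 18 of the 46 genes of the rule for named genes that passed with limits of 1%. Nts (4.75), Gsx1 (3.65), Isl1 (3.05), Crem (3.39), Mt2 (5.06) and Nr3c1 (1.79) still passed. Gad1 (0.37, adjusted p = 0.287), Slc17a6 (-1.31, adjusted p = 0.421), Cartpt (5.90, adjusted p = 0.0669), Crh (4.20, adjusted p = 0.192) and Gal (1.08, adjusted p = 0.357) did not. Several others that did not pass had log2 fold changes in the same direction, among them Tac2 (-3.32), Penk (1.82), Npy2r (1.53), Dlx1 (1.36), Irs4 (1.36) and Sncg (-2.66). Without wells that held at least 3 counts of Tac2, 22 of the 36 such genes still tested passed, and Gal (2.03, adjusted p = 0.0552) and Penk (2.45, adjusted p = 0.0552) did not.

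As other wells include glutamatergic neurons, the comparison was repeated between GABAergic members and other GABAergic wells alone, 159 and 124 wells on the same 13 plates. Of 4328 genes tested, 505 (11.7%) passed, 276 higher in members (6.38%) and 229 lower (5.29%), again with a median of 0.00. Both comparisons share most of their wells, so the second is no independent repeat of the first. Against other GABAergic wells, Cartpt averaged 7371 ± 3295 CPM in members and 289 ± 399 CPM in the others (log2 fold change 5.23 ± 0.61, adjusted p = 9.17e-05), Nts 4967 ± 1288 and 334 ± 364 CPM (log2 fold change 4.18 ± 0.55, adjusted p = 2.63e-04) and Crh 508 ± 304 and 22.2 ± 49.7 CPM (log2 fold change 4.71 ± 0.71, adjusted p = 7.53e-04). Gsx1, Isl1 and Dlx1 rose by 3.26 ± 0.52, 2.85 ± 0.36 and 1.03 ± 0.28 (adjusted p = 3.23e-05, 9.68e-07 and 0.0129), 3 of the 6 lineage genes tested of 34. Dlx1 did not pass when wells were thinned to 18000 counts (0.69, adjusted p = 0.167), under the 0.2% limits (1.001, adjusted p = 0.264) or without Tac2 wells (1.29, adjusted p = 0.311). The gene Rrad, a small GTPase of the Ras family, was among the 10 largest rises here (log2 fold change 3.46 ± 0.45, adjusted p = 9.95e-07), and Sez6 among the 10 largest falls (log2 fold change -2.51 ± 0.45, adjusted p = 1.58e-04).

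Some differences did not pass against other GABAergic wells. Gal averaged 2482 ± 537 CPM in members and 1552 ± 848 CPM in the others, higher in 12 of 13 plates (log2 fold change 0.86 ± 0.31, adjusted p = 0.102), but passed with DESeq2 (0.90, adjusted p = 0.018). Npy2r did not pass (log2 fold change 1.39 ± 0.50, adjusted p = 0.0657), but did without replicate 4 (1.71, adjusted p = 0.0193) or 18 (1.69, adjusted p = 0.0253), with DESeq2 (1.63, adjusted p = 0.00657), with no filter on low counts, with members of a sum of at least 10 and with members of at least 2 of the 3 genes. Tac1 did not pass (log2 fold change 2.04 ± 0.62, adjusted p = 0.0537), but did without replicate 9 (2.31, adjusted p = 0.0402) or 14 (2.35, adjusted p = 0.0277), with DESeq2 (3.08, adjusted p = 8.05e-04), with no replicate block (1.89, adjusted p = 0.0213), with members of a sum of at least 10 and with members of at least 2 of the 3 genes. With members of Asb4 alone the sign of Tac1 turned (-2.58). Nnat (-0.83 ± 0.33), Kcna2 (-0.997 ± 0.38) and Kcnk1 (-0.61 ± 0.30) did not pass. Adcy2, Sncg, Acvr1c, Tmem114, Kcnh1 and Prox1 were under the filter on low counts here and were not tested, and Gad1, Gad2 and Slc17a6, which chose the GABAergic wells, were left out. Calb1 was at -1.09 ± 0.56 (adjusted p = 0.28). Prlr fell in members (log2 fold change -1.73 ± 0.48, adjusted p = 0.0146), as did Pnoc (log2 fold change -2.61 ± 0.58, adjusted p = 0.00923), which did not pass when thinned (-2.33, adjusted p = 0.0958), under the 0.2% limits (-1.80, adjusted p = 0.0688), with no filter on low counts (-2.57, adjusted p = 0.0534) or without Tac2 wells (-2.88, adjusted p = 0.492). Tac2 averaged 99 ± 147 CPM in members and 909.9 ± 489 CPM in the others (log2 fold change -3.64 ± 0.77, adjusted p = 0.00796). Of the neuropeptide list 16 of 51 genes were tested, 7 rose and 3 fell (median 0.60).

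With wells that held at least 3 counts of Tac2 left out of both classes, 7 plates with 95 members and 52 other GABAergic wells remained, and 32 genes passed, 21 higher and 11 lower. Nts (3.42, adjusted p = 0.11), Cartpt (4.70, adjusted p = 0.14), Crh (3.53, adjusted p = 0.27), Gsx1 (2.06, adjusted p = 0.24) and Isl1 (1.65, adjusted p = 0.053) did not pass, whereas Mt2 (4.12), Rasgrp1 (3.89), Rrad (2.82), Crem (2.67), Calb2 (-2.40), Spock1 (-2.09) and Nefl (-1.26) did. The plot of fold changes sets both comparisons side by side.

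**Figure D4:**
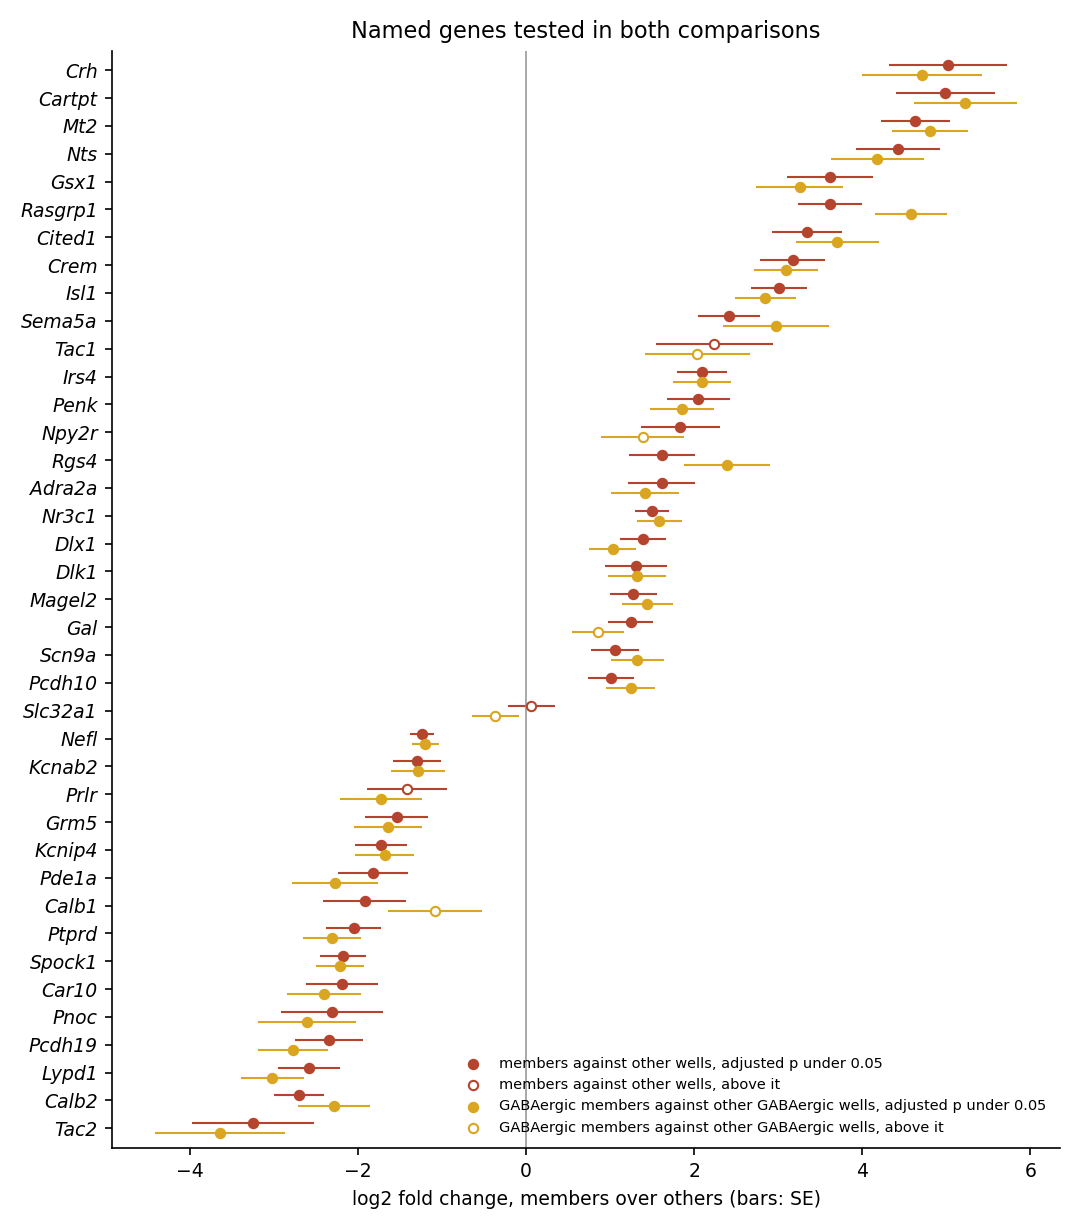
Log2 fold change ± SE of members over other wells (red) and of GABAergic members over other GABAergic wells (yellow) for the named genes tested in both, filled where the adjusted p was under 0.05 and open otherwise. Most pairs overlap within their errors; Gal, Npy2r and Calb1 are filled in red and open in yellow, and Prlr is the other way round.

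Within the members, levels varied with which genes of the rule were detected. Summed over wells, the 68 members with all 3 genes had 6031 CPM of Nts and 8797 CPM of Cartpt, the 42 with Calcr and Asb4 had 4752 and 5551 CPM, and the 11 with Mc4r and Asb4 had 6178 and 12838 CPM. The 48 members with Asb4 alone had 990 CPM of Nts and 2152 CPM of Cartpt, 90.1 CPM of Tac1 and 9.57 CPM of Mc3r. In the wells with all 3 genes Tac1 was at 1052 CPM and Mc3r at 72 CPM. Gal differed less, with 2816 CPM in wells with all 3 genes and 2244 CPM in wells with Asb4 alone. The Asb4-alone wells came from 10 plates, had a median of 23448 counts, against 32859 in wells with all 3 genes, and the part of depth in this difference was not tested. In a fit of the Asb4-alone wells against other wells (6 plates, 41 members), 8 of 5326 genes passed, and in a fit of members with at least 2 of the 3 genes (13 plates) 542 of 4940 did. Both fits were added after the data were seen.

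Most members held several of 7 peptide genes. At 3 or more counts, 147 members had Nts, of which 142 also had Gal, 131 Cartpt, 119 Penk, 82 Crh, 73 Tac1 and 16 Tac2. Crh reached 3 counts in 87 members, of which 82 also had Nts and 84 Gal, and Tac1 in 75, of which 73 also had Cartpt and 1 Tac2. Among all 182 members, Gal reached 3 counts in 161, Cartpt in 138, Penk in 132 and Tac2 in 19. Genes that are each common are often found together for that reason alone, so these pairs do not show a link between genes. Of the 7 peptide genes, 58 members had 5, 39 had 6, 34 had 4 and 1 had all, while 6 had none and 13 had 1. These counts describe wells and were not tested.

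Clustered on variable genes other than those of the rule, Hcrt and Pmch, the 360 wells fell into 6 clusters, and clusters 0 and 2 held 137 of 182 members (75.3%). This share was 75.3% and 74.7% at the other resolutions tried. Cluster 0 held 75 wells, 74 of them members, and was led by Cartpt, Diaph3, Tac1, Acvr1c and Crem. Cluster 2 held 67 wells, 63 of them members, and its leading genes included Tmem114, Oprk1, Sox5 and Gpr83. Members in cluster 0 had 11539.6 CPM of Cartpt, 1327 of Tac1 and 6.51 of Tac2, and those in cluster 2 had 4903, 302 and 172 CPM. Their Nts was at 5916 and 5102 CPM. A further 25 members fell in cluster 4, with 218 CPM of Nts, 80.5 of Cartpt, 1783 of Gal, 1000.2 of Penk and no Mc4r. The 11 members in cluster 1 had 532 CPM of Otp and 299 CPM of Slc17a6. As these genes entered the clustering, the values describe the clusters and were not tested.

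**Figure D5:**
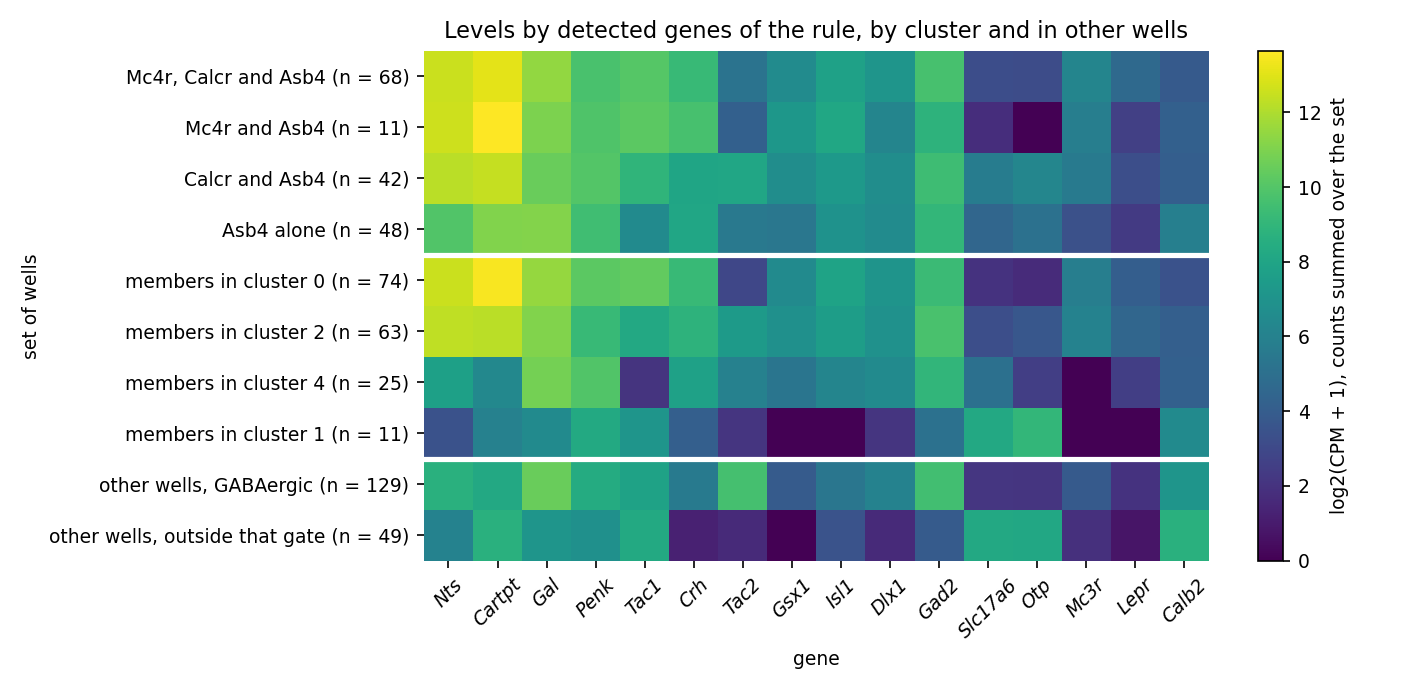
Level of 16 genes as log2(CPM + 1), with counts summed over the wells of a set. The upper 4 rows are members by the genes of the rule detected, and the middle 4 rows are members of 4 clusters. The bottom rows are other wells, inside and outside the GABAergic gate. The Asb4-alone row and the cluster 4 row are lower in Nts, Cartpt and Tac1 than the other member rows except cluster 1. In Gal they are close to those rows. The cluster 1 row is low in Nts, Cartpt and Gal and high in Slc17a6 and Otp.

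Members were found on all 19 plates, 1 to 23 on each. In the 13 tested plates they made up 41.2% to 68.2% of the passing wells, with a median of 50%. The summed counts of a plate ran from 166776 to 771066 in members and from 88606 to 893084 in the other wells. All LHA wells of a plate summed to 1835746 to 5070306 counts. Members carried 2498 ± 1434 CPM of Hcrt and the other wells 2670 ± 1447 CPM, below the limit of 1% that both had to meet. All but 1 of the wells labelled as ERCC or as empty held at most 1022 counts, with a median of 169 and no count of Mc4r, Calcr or Asb4.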

How the data were processed

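The data are deposited counts per gene and well from 19 plates, whole numbers with no normalization, and a deposited table of wells, whose percent of counts on ERCC spike-ins was used as the authors gave it. Per the submitters' processing notes, the tools include STARsolo 2.7.5c and STAR 2.7.5c with the build GRCm38, after cutadapt 2.1.0 and bcl2fastq 2.20; Seurat 2.3.4 and R 3.4.3 are also given. Whether molecular identifiers were collapsed, the strand setting and the annotation release are not given in the sources used here, so overlapping and antisense genes may share counts. Per the labels, libraries held 135025 ± 38401 reads per cell. The 103 rows that name no mouse gene (92 ERCC, 11 transgene) were left out of totals and tests; in passing wells they held 6.48% (ERCC) and 0.00173% (transgene) of counts.

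Sums of counts over the wells of a class in each plate entered edgeR 4.0.16 in R 4.3.3 and were tested by its quasi-likelihood test, made robust, with TMM scaling, the filterByExpr filter and a block for the plate, where a plate had 3 or more wells of each class. P-values are two-sided and were adjusted by Benjamini-Hochberg over all genes tested, with a threshold of 0.05. The standard error follows from the F statistic of the test (size of the log2 fold change over the root of F). Plate medians were compared by exact sign-flip permutation. The plate block pairs members and other wells of 1 plate, which were processed together. Alternatives were DESeq2 1.42.0, another scaling, no filter, other limits, thinned wells and leaving out each plate. Clusters came from leidenalg 0.10.2 and scanpy 1.11.5. The code of the fit was run on simulated counts in which every gene had the same dispersion. Real plate sums are not so even, so that run does not measure the error rate of the fit here. Doublets were not called, as cells were picked singly by hand. All 384 well barcodes occur on more than 1 plate, so a well is named by plate and barcode. Mouse genes numbered 52636.

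The members and the lists were chosen with earlier results of these data known. To be named, a gene had to pass the 0.05 threshold, change by 1 or more on the log2 scale, reach 20 CPM in 1 class and keep its direction in 80% of plates or more; of these, the 10 with the largest change each way and up to 4 per list are named, leaving out mitochondrial and predicted genes, plus a set list of genes named whatever the test gave. Genes named outside that rule, such as Vgf, Resp18, Chga, Mt1, Stat3, Gpr101, Cnr1, Jun, Gnas, Rgs2, Aldoc and Ppp1r9a, were chosen after their values were seen. Some genes that the rule names are not reported here. Intervals and limits cover counting error only.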

Additional observations from a re-analysis of the deposited data

Results flagged for a closer look

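A well labelled as empty on the plate of replicate 15 held 100707 counts of 5682 genes, unlike the other wells labelled ERCC or empty, and would have been a member had it been labelled LHA. Its counts of Mc4r, Calcr and Asb4 summed to 61, with 51 of Asb4, 10 of Calcr and none of Mc4r. It also held 1855 counts of Cartpt, 701 of Nts, 148 of Crh, 127 of Gal, 76 of Isl1, 45 of Gad2 and 22 of Gad1, no count of Slc17a6 and 8.55% of its counts on ERCC. It entered no comparison.

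The deposited count table has a row for WPRE, an element carried by many transgenes, which no comparison used. It had a count in 25.3% of members (46 of 182, exact 95% interval 19.1% to 32.2%), in 19.7% of other wells (35 of 178) and in 31.2% of the orexin wells (333 of 1068). It had none in 68 qRNA wells, which by a limit of 3 wells allows a share of up to 4.41%, and a count in 1 well (0.962%) of those labelled ERCC or empty. The tdTomato row had no count in the 182 members, which by the same limit allows a share of up to 1.65%. It had a count in 2 of 178 other wells and in 7 of 1068 orexin wells. How well this row detects RNA of the reporter was not tested.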

How the results depend on the processing

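The calls depended most on which wells were compared. The share of tested genes called was 8.64% (4.82% higher in members, 3.81% lower), and 11.7% (6.38% and 5.29%) among GABAergic wells. Limits of 0.2% on Hcrt and Pmch gave 1.63% (0.941% and 0.686%), and 1.95% (1.15% and 0.799%). Leaving out wells with Tac2 gave 2.698% (1.88% and 0.818%; 132 genes), and 0.755% (0.495% and 0.259%; 32 genes). Members with Asb4 alone gave 0.1502% (0.0751% each way), and 0.193% (0.0484% and 0.145%). Thinning to 18000 counts, on 12 plates, gave 231 and 247 genes, against 478 and 505. These settings hold fewer wells or plates, and whether this alone lowered the counts was not tested. Without a filter 27067 genes were tested, and 1.95% (1.17% and 0.772%) passed, and 2.07% (1.36% and 0.706%) among GABAergic wells, or 527 and 537 genes. Of the 478 genes, 477 had the same sign under the 0.2% limits, and 357 of the 449 tested with Asb4 alone. Leaving out 1 plate gave 7.13% to 9.03% (4.24% to 5.06% higher, 2.89% to 3.97% lower), and 10.1% to 11.4% (5.60% to 6.32% and 4.43% to 5.09%). DESeq2 called 615 and 623 genes, and the fit with no replicate block 398 and 448 (7.19% and 10.4%). The plate difference in depth was 1905 counts (p = 0.277) with at least 2 wells per class and 3771 (p = 0.0950) against other GABAergic wells, and 2804 to 4493 with 1 plate left out (exact permutation). At 10000 counts Nts was in 35.4% of other wells and Gsx1 in 41.8% of members.

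Signs turned, for causes not tested, with Asb4 alone for Irs4 (-0.13), Slc32a1 (-0.091) and Tac1 (-2.72, adjusted p = 0.0027), and among GABAergic wells for Irs4 (-0.063), Nefl (0.14), Tac1 (-2.58) and Calb1 (0.058). With 1 plate left out Slc32a1 ran from -0.025 to 0.17 and Mrap2 from -0.29 to 0.13. Mrap2 was at 0.14 under the 0.2% limits, and Plxnc1 at -0.26 without Tac2 wells among GABAergic wells.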
